A study of Mus musculus with 8 samples.

Results

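The genes described here encode the proteasome in mouse testis, in mice labelled N6amt1-SKO (N6amt1 codes for a methyltransferase) and in mice labelled CTL. Members were all rows of the gene table whose symbol begins Psma, Psmb, Psmc, Psmd, Psme, Psmf or Psmg and continues with a number and at most 1 letter. The rule found 48 of 17121 genes and used no measured value. Bulk RNA sequencing was made from 4 SKO testis samples and 4 CTL testis samples, and the samples are called SKO 1 to 4 and CTL 1 to 4 after their titles. Of the traits of the mice, the labels give genotype and the tissue sampled only. The strain, the age, the allele, the cells in which the gene was deleted, and whether each sample is a separate mouse are not given in the sources used here, so the p-values below measure the spread between these samples.

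The proteasome is the protease that degrades ubiquitin-tagged proteins in the cytosol and nucleus. Its 20S core is a barrel of alpha rings around beta rings, and the beta subunits carry the catalytic sites. The 19S cap recognises tagged proteins, removes the tag, and unfolds and feeds the protein into the core through a ring of ATPases. The core can also be capped by the Psme-encoded activators, and interferon exchanges the catalytic beta subunits for inducible ones. Male germ cells have their own forms: Psma8 codes for an alpha subunit that replaces the one from Psma7 in spermatocytes, and Psme4 codes for PA200, an activator known for the degradation of acetylated histones in spermatids.

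In all columns but those of CTL 1 and CTL 2, the deposited values could be shown to be read counts multiplied by a factor and rounded. Column totals were 94.2 to 103 M. Gaps in the whole numbers gave the read numbers behind 6 of the columns, 40.6 to 65.6 M in the SKO libraries and 57.4 and 70.1 M in CTL 4 and CTL 3. They gave no factor for CTL 1 and CTL 2. A factor below 1 would leave no such gaps, so these columns may be scaled too. The targeted gene did not check the labels: N6amt1 had normalised values of 557 to 625 in SKO and 433 to 629 in CTL (log2 fold change 0.19, adjusted p = 0.437, limma). The labels name testis as the tissue but heart ventricles in the RNA extraction. Spermatocyte genes had summed normalised values of 445687 or more in every library, and the 3 of 6 heart muscle markers listed in the table summed to 1269 to 2008 in SKO and 630 to 988 in CTL. The libraries also fell into sets by the share of 18S ribosomal RNA, which was at most 0.273% in SKO 1 to 3, CTL 1 and CTL 2, and at least 0.721% in SKO 4, CTL 3 and CTL 4. Below, a normalised value is the deposited value divided by a TMM factor, and a gene is said to have risen or fallen where limma gave a Benjamini-Hochberg adjusted p under 0.05 over 17066 genes. Fold changes are on the log2(value + 5) scale and give SKO over CTL.

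All 48 members passed the filter on low values. Of these, 5 rose in SKO (Psma7, Psmb10, Psme1, Psme2 and Psme2b) and 2 fell (Psma8 and Psme4). That is 14.6% of the members, against 19.9% of all genes tested (11.9% risen and 7.93% fallen), so as a family the proteasome genes were called no more often than the background. The median log2 fold change was 0.04 over the members and 0.04 over all genes. In 14 members (29.2%) the SKO and CTL values did not overlap, against 26.1% of all genes. The SKO values lay above in 9 members (15.6% of all genes) and below in 5 (10.6% of all genes). The counts depended on the scaling: library totals, which put the median of all genes at 0.33, gave 15 risen and 1 fallen member, and median-ratio scaling gave 4 and 4. Without SKO 3 no member was called, nor was any other gene. By role, the 7 called genes were the germline and common forms of 1 alpha subunit, 1 of the inducible beta subunits, and activators. No common catalytic subunit, 19S subunit or assembly chaperone was called.

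**Figure D1:**
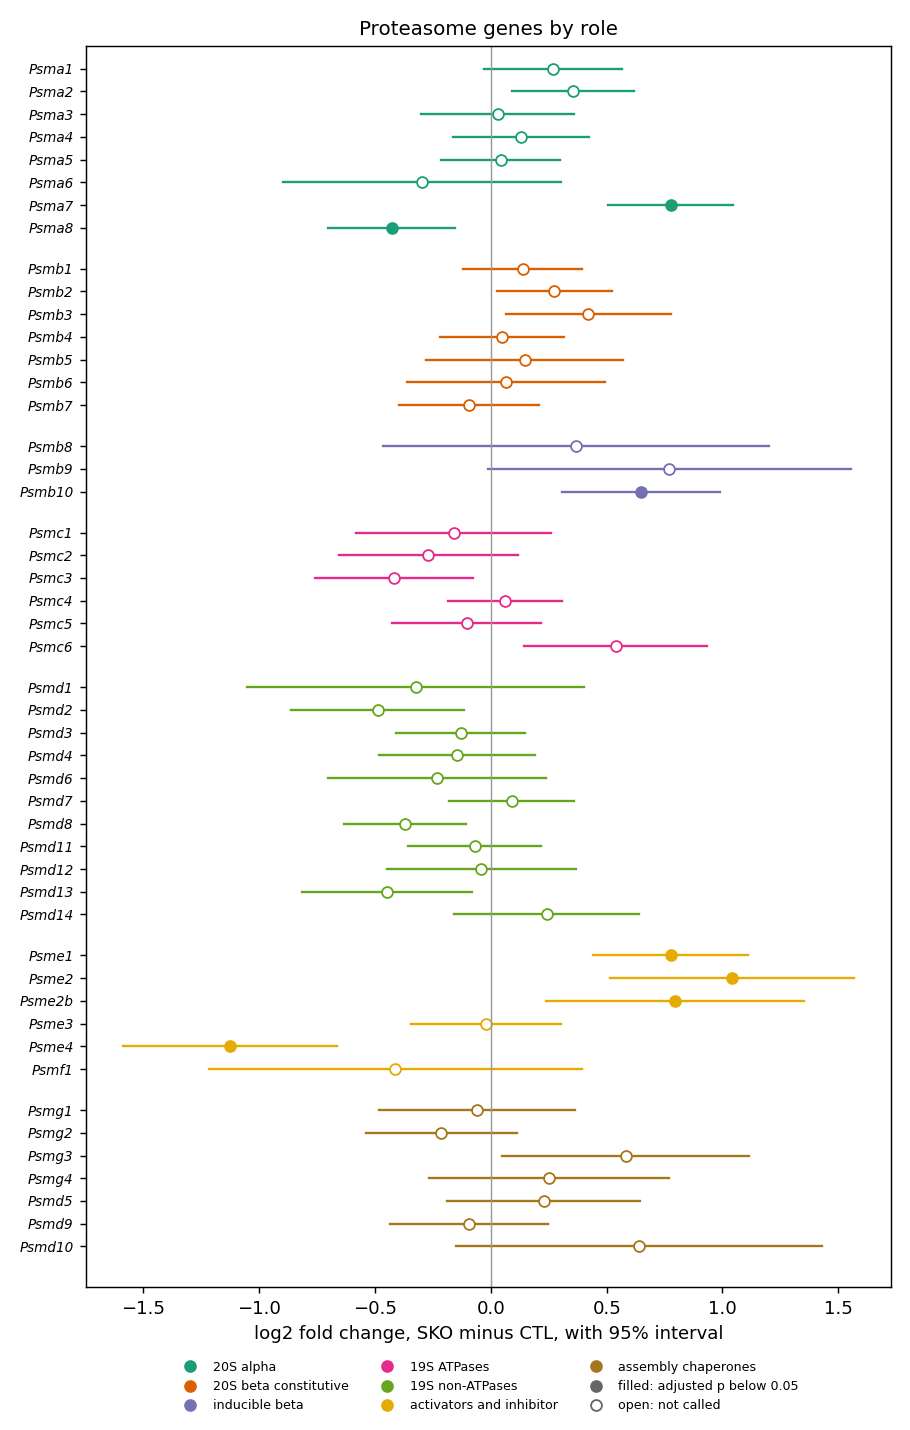
Log2 fold change (SKO minus CTL) of each of the 48 proteasome genes with its 95% interval, ordered by role. Colour gives the role. Filled points mark the 5 risen genes and the 2 fallen genes, and open points the genes not called. Psme4 at -1.13 and Psme2 at 1.04 mark the ends of the range.

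Among the 8 alpha subunit genes, the common form and the germline form of the same position moved in opposite directions. Psma7, which codes for the alpha 4 subunit of most tissues, had normalised values of 5725, 5158, 5864 and 5819 in SKO 1 to 4, against 3585, 3032, 3118 and 3434 in CTL 1 to 4. Every SKO library lay above every CTL library, by a margin larger than the spread within either group. The mean was 5641 ± 327 in SKO and 3292 ± 261 in CTL (SD, n = 4 each), a 1.71-fold rise (log2 fold change 0.78 ± 0.12 SE, limma adjusted p = 0.0123). Psma8, the germline alpha subunit gene, had 10883, 12621, 12803 and 12539 in SKO, against 16426, 15439, 15455 and 18452 in CTL. Here every SKO library lay below every CTL library, with SKO 1 the lowest. The mean was 12212 ± 892 in SKO and 16443 ± 1417 in CTL (SD, n = 4 each), a 1.35-fold fall (log2 fold change -0.43 ± 0.12 SE, limma adjusted p = 0.0385). The Psma8 call was kept when SKO 4 was left out and lost when any other single library was (adjusted p 0.0509 to 0.11). It was also lost with upper quartile scaling (-0.38, adjusted p = 0.0555) and with library totals (-0.14, adjusted p = 0.454). Psma7 was lost only without SKO 3 (0.76, adjusted p = 0.0569) and within the higher 18S set described below.

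The ratio of the germline to the common form does not depend on how libraries are scaled. Psma8 to Psma7 was 1.90, 2.45, 2.18 and 2.15 in SKO, against 4.58, 5.09, 4.96 and 5.37 in CTL. The groups were far apart relative to their own ranges. The ratio was 2.31-fold lower in SKO (log2 difference -1.21, p = 0.0286 in an exact permutation test, two-sided, and 0.0476 adjusted over 5 ratios). No smaller p can be had from 4 libraries against 4. The adjusted value also rests on Psme4 to Psme3 and Psmb10 to Psmb7 reaching the same p. Since Psma8 was lower and Psma7 higher in every SKO library, their ratio had to separate the groups, so its p adds no further support. Per kilobase of the principal transcripts, which makes the levels of the genes comparable, Psma8 stood at 1.17 ± 0.121 times Psma7 in SKO and at 2.70 ± 0.177 times in CTL (SD, n = 4 each). With lengths from the union of all exons, a choice added after seeing the data, these were 2.67 times in SKO and 6.16 times in CTL. Fewer cells of a type and less RNA per cell cannot be told apart in these bulk samples.

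Markers of testis cells were set beside this pair. Of all genes tested, 11.9% rose and 7.93% fell. Of 8 markers of pachytene and later spermatocytes, 4 fell in SKO (Piwil1, Adam2, Hspa2 and Pou5f2). Ccna1, Sycp3, Ldhc and Pgk2 were not called, and Sycp3 had a positive log2 fold change (0.20). The summed normalised value of the 8 was 445687 to 513430 in SKO and 549326 to 764771 in CTL. Its largest part was the uncalled Ldhc (mean 204400 in SKO and 277500 in CTL). Of 7 spermatogonial markers, 4 rose, with sums of 26370 to 31307 in SKO and 15201 to 19558 in CTL. Of 12 Sertoli cell markers, 9 rose, with sums of 141274 to 305693 in SKO and 61346 to 152462 in CTL. The largest part of these sums was the uncalled Clu (mean 160100 in SKO and 63810 in CTL). Of 4 myoid cell markers 2 rose, of 6 Leydig cell markers 1 rose, and no marker of round spermatids (7) or elongating spermatids (7) was called. None of these markers was at 0 in any library. Their part in the proteasome results was not tested.

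The window from 250 bases before to 50 bases after the annotated start is shown for Psma7, the common subunit gene that rose, as RefSeq gives it on GRCm38.p6, chr2:180042415-180042714, minus strand. Capitals mark a CCAAT box at position -196 from the start.
Psma7: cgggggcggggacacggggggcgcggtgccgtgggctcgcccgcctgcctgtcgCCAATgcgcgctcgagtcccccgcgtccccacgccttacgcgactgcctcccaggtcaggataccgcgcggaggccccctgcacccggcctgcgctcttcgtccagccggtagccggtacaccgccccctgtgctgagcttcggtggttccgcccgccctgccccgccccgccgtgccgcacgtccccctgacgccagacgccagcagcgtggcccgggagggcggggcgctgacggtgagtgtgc

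The other 6 alpha subunit genes were not called, and their log2 fold changes ran from -0.30 for Psma6 to 0.35 for Psma2. Psma2 came closest, with 4844 to 5840 in SKO and 3921 to 4236 in CTL, groups that did not overlap (limma adjusted p = 0.0602). Psma6 differed more between libraries than between groups: 9778 to 17722 in SKO and 12271 to 25905 in CTL. It was called as lower within the lower 18S libraries (-0.55, limma adjusted p = 0.034). In that set, CTL 1, CTL 2 and SKO 1 were high for Psma6 and for the elongating spermatid markers, and SKO 2 and SKO 3 were lower. The part of this imbalance in the call was not tested.

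**Figure D2:**
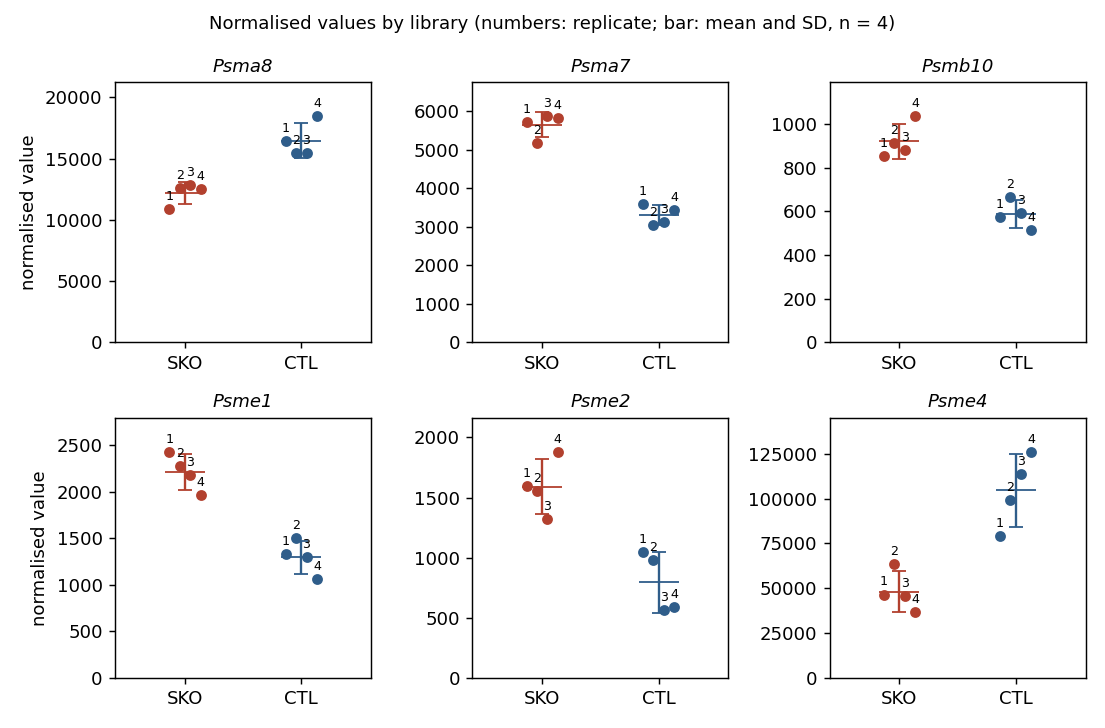
Normalised values by library for selected proteasome genes, SKO left of CTL, with the replicate number beside each point and bars for the mean and SD (n = 4). Psma7 lies at 5158 to 5864 in SKO and 3032 to 3585 in CTL, and Psme4 at 36619 to 63449 in SKO and 79057 to 126167 in CTL.

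The common beta subunit genes, which build the inner rings, gave no call among 7 over all libraries with TMM scaling. Their log2 fold changes ran from -0.10 to 0.42 with a median of 0.14, and 6 of 7 were positive. With median-ratio scaling 4 of 7 were positive, and with library totals 7 of 7. Library totals, which put the median of all genes at 0.33, called Psmb1, Psmb2 and Psmb3 as risen. In Psmb1 and Psmb2 every SKO library lay above every CTL library (limma adjusted p = 0.421 and 0.105). That is 28.6% of the 7 genes, against 15.6% of all genes. Psmb5, which codes for the chymotrypsin-like catalytic subunit, had 4234, 3435, 4919 and 4739 in SKO, against 4238, 3912, 4800 and 2844 in CTL. The groups overlapped (log2 fold change 0.15, 95% interval -0.28 to 0.57, limma adjusted p = 0.619). In Psmb5, 46.8% of the 50-base stretches of its exons also occur in Gm3375, another row of the table, so its count is uncertain.

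Psmb6, for the caspase-like subunit, had 13654, 10527, 11627 and 16693 in SKO, against 14115, 12686, 14018 and 9302 in CTL. Psmb7, for the trypsin-like subunit, had 7314, 6347, 7057 and 7304 in SKO, against 7797, 8298, 7843 and 6145 in CTL. Both overlapped between groups, with log2 fold changes of 0.06 (95% interval -0.36 to 0.49, limma adjusted p = 0.844) and -0.10 (95% interval -0.40 to 0.21, limma adjusted p = 0.649). The smallest p in the group belonged to Psmb3, a structural beta subunit gene, with 5471, 4090, 4204 and 5198 in SKO, against 4147, 3813, 3088 and 3123 in CTL. Only SKO 2 lay below the highest CTL library (log2 fold change 0.42, limma adjusted p = 0.0876). Of the 50-base stretches of Psmb3, 55.8% also occur in 7 other genes, none of them a row of the table, so its count is uncertain too.

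The inducible beta subunits replace these catalytic subunits in the immunoproteasome. Their genes are Psmb8, Psmb9 and Psmb10. Psmb10, the counterpart of Psmb7, had 853, 911, 881 and 1035 in SKO, against 572, 667, 593 and 512 in CTL. All SKO values were above all CTL values. The mean was 920 ± 80.4 in SKO and 586 ± 63.8 in CTL (SD, n = 4 each), a 1.57-fold rise (log2 fold change 0.65 ± 0.15 SE, limma adjusted p = 0.0214). The call was kept in 3 of the 8 fits that left out 1 library, with a log2 fold change of 0.56 to 0.68 over all 8 (adjusted p 0.0314 to 0.0672).

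Psmb8, the counterpart of Psmb5, had 119, 164, 164 and 364 in SKO, against 88.4, 163, 158 and 179 in CTL. Psmb9, the counterpart of Psmb6, had 257, 138, 172 and 408 in SKO, against 126, 159, 94.9 and 145 in CTL. SKO 4 was the highest library in both genes, and the groups overlapped in both. Neither was called, with log2 fold changes of 0.37 (95% interval -0.46 to 1.20, limma adjusted p = 0.51) and 0.77 (95% interval -0.01 to 1.56, limma adjusted p = 0.141). These are the 2 lowest members per kilobase, and Psmb8 rested on 85 to 156 reads in the SKO libraries and on 92 and 88 reads in CTL 3 and CTL 4, while the spread between SKO libraries was 53.9% of the mean for Psmb8 and 49.4% for Psmb9 (coefficient of variation, n = 4). Of Psmb9, 5.8% of the exon length overlaps Tap1 on the opposite strand. The kit named in the labels does not mark strand, so some of its reads may be from Tap1. Opposite-strand overlaps were larger in Psmb8 (14.7%, with Gm20496, not a row of the table) and in Psmb7 (11.8%, with Nek6). The counts of these genes, and the ratios below that use them, are uncertain for the same reason.

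Against the counterpart in the same library, Psmb10 to Psmb7 was 0.117, 0.144, 0.125 and 0.142 in SKO, against 0.0734, 0.0803, 0.0756 and 0.0833 in CTL. The groups did not overlap, and the ratio was 1.67-fold higher in SKO (log2 difference 0.74, exact two-sided permutation p = 0.0286, adjusted 0.0476). Psmb9 to Psmb6 was 0.0131 to 0.0244 in SKO and 0.00677 to 0.0156 in CTL (log2 difference 0.71, exact permutation p = 0.114, adjusted 0.143). Psmb8 to Psmb5 was 0.0282 to 0.0767 in SKO and 0.0209 to 0.063 in CTL (log2 difference 0.22, exact permutation p = 0.6). The groups overlapped in both of these ratios, and no difference between the ratios themselves was tested.

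**Figure D3:**
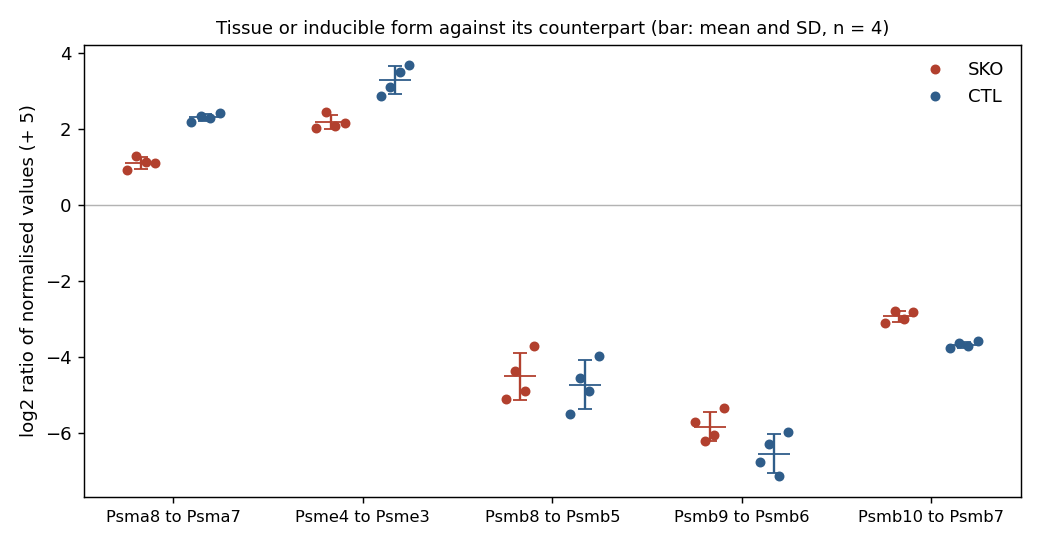
Log2 ratio of a tissue or inducible proteasome gene to its counterpart in each library, SKO left of CTL. For Psme4 the comparison gene is Psme3, a different activator gene and not a counterpart form. Bars give the mean and SD (n = 4). Psma8 to Psma7 (mean 1.11 in SKO, 2.32 in CTL), Psme4 to Psme3 (2.19 in SKO, 3.30 in CTL) and Psmb10 to Psmb7 (-2.92 in SKO, -3.67 in CTL) separate the groups.

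The activator genes held 4 of the 7 calls. Psme4, the PA200 gene, had 46406, 63449, 45847 and 36619 in SKO, against 79057, 99216, 113645 and 126167 in CTL. The highest SKO library, SKO 2, was below the lowest CTL library, CTL 1. The mean was 48080 ± 11186 in SKO and 104521 ± 20235 in CTL (SD, n = 4 each), a 2.18-fold fall (95% interval 1.59 to 3.01, limma adjusted p = 0.0134). The call was lost only without SKO 3 (log2 fold change -1.11, adjusted p = 0.0576), a fit in which no gene at all was called.

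Psme1 and Psme2 code for the subunits of the interferon-inducible PA28 activator. Of the 50-base stretches of Psme1, 11.3% also occur in 2 other genes, neither of them a row of the table. Psme1 had 2432, 2275, 2177 and 1966 in SKO, against 1330, 1497, 1294 and 1063 in CTL. Every SKO library was above every CTL library, and the rise was 1.71-fold (95% interval 1.36 to 2.16, limma adjusted p = 0.0141; 0.0576 without SKO 3). Psme2 had 1596, 1558, 1323 and 1882 in SKO, against 1050, 977, 564 and 590 in CTL. The groups did not overlap, CTL 3 and CTL 4 were the lowest, and the rise was 2.06-fold (95% interval 1.43 to 2.96, limma adjusted p = 0.0196). The Psme2 call was lost without SKO 1, SKO 2, SKO 3 or CTL 3 (adjusted p 0.0512 to 0.0593). Psme2b, a close copy on chromosome 11, had 926, 930, 1443 and 1044 in SKO, against 442, 506, 879 and 716 in CTL. It rose 1.74-fold (limma adjusted p = 0.0497), a call that was lost in each of the 8 fits without 1 library (adjusted p 0.0548 to 0.144) and with median-ratio scaling (adjusted p = 0.069).

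Psme2 and Psme2b cannot be separated with certainty, because 54.9% of the 50-base stretches in Psme2 exons also occur in Psme2b, and 68.7% of those in Psme2b occur in Psme2. Their sum, an alternative added after seeing the data, was 2522, 2488, 2766 and 2926 in SKO, against 1492, 1483, 1443 and 1306 in CTL. The sum was tighter within each group than either gene alone. It was higher by 0.90 on the log2 scale in SKO. Each gene alone already had every SKO library above every CTL library, so the sum had to separate the groups. The exact two-sided permutation p was thus fixed at its smallest value, 0.0286, and adds no support.

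Psme3, which codes for the nuclear PA28 gamma activator, had 11352, 11486, 10698 and 8103 in SKO, against 10666, 11384, 10026 and 9803 in CTL. The groups overlapped (log2 fold change -0.02, 95% interval -0.34 to 0.31, limma adjusted p = 0.94). With Psme3 as the yardstick in the same library, Psme4 to Psme3 was 4.09, 5.52, 4.29 and 4.52 in SKO, against 7.41, 8.72, 11.3 and 12.9 in CTL. The ratio was lower in every SKO library than in any CTL library, by 2.15-fold (log2 difference -1.11, exact two-sided permutation p = 0.0286, adjusted 0.0476). Per kilobase, Psme4 made up 46.9%, 55.1%, 49.0% and 45.5% of the summed Psme1 to Psme4 level in SKO, against 65.9%, 69.7%, 76.1% and 78.7% in CTL.

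Some immune and interferon markers rose where Psmb10, Psme1 and Psme2 did. Over all genes tested, 11.9% rose. Of 9 macrophage and immune markers, 4 rose, all of them genes of MHC class II presentation (Cd74, H2-Aa, H2-Ab1 and H2-Eb1), while Cd68, Csf1r, Adgre1, Ptprc and C1qa were not called. The 9 markers had sums of 11095 to 13121 in SKO and 6064 to 8679 in CTL. Of 13 interferon response and antigen presentation genes, 3 rose, Irf1 and B2m among them. That is 23.1%, against 11.9% of all genes risen and 19.9% called in either direction. Ifit1 (log2 fold change -0.30) and Nlrc5 (-0.04) were among the genes not called. The 13 genes had overlapping sums of 36789 to 46844 in SKO and 26294 to 37880 in CTL, and Isg15 was at 0 in CTL 4. Their part in the rise of these proteasome genes was not tested.

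Promoter windows are shown for Psme1, which rose, and Psme4, which fell, from RefSeq on GRCm38.p6, chr14:55578244-55578543, plus strand, and chr11:30771525-30771824, plus strand. Capitals mark an interferon regulatory factor pair on the reverse strand of Psme1, at position 9 from the start, and in Psme4 an ETS core at position -53 and a reverse-strand antioxidant response core at position -7.
Psme1: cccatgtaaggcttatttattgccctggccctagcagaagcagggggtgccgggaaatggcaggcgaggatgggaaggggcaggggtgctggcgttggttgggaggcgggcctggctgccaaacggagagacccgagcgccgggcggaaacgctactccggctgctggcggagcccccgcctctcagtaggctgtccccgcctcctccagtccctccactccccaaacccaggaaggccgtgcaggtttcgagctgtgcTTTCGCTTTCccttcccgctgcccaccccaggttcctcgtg
Psme4: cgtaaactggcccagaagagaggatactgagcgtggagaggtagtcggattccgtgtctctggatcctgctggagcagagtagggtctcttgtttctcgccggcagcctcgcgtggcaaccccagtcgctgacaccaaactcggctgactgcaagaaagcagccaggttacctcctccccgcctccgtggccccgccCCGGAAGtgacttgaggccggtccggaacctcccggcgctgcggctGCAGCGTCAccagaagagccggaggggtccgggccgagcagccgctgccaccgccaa

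Windows were matched for 40 of the 48 members (43 windows, since a gene can have several starts) and searched on both strands, without regard to overlap between motifs. The interferon regulatory factor pair (GAAA, NN and GAAA in a row) was in 11.6% of the member windows, against 2.8% of 16533 windows of all genes in the table. It was found in Psme1, Psmb3, Psmd4, Psmd9 and Psmg4, of which Psme1 is the only called gene. The ETS core CCGGAAG was in 34.9% of the member windows, against 14.6% of all. The antioxidant response core TGACNNNGC was in 14.0% of the member windows, against 13.9% of all. CCAAT was in 30.2% of the member windows, against 37.8% of all, and TGACGTCA in none of the member windows, against 2.7% of all. These are matches of letters and not sites of binding.

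The 19S cap gave no call in its base or its lid over all 8 libraries with TMM scaling. Other settings called some of its genes as lower in SKO: Psmc2, Psmc3 and Psmd8 within the lower 18S libraries, Psmd2 and Psmd8 with median-ratio scaling, Psmc3 without SKO 4, Psmd2 without CTL 1, and Psmd8 without CTL 4. Scaling by library totals, which put the median of all genes at 0.33, called Psmc6 and Psmd14 as higher in SKO. It called no gene of the cap as lower. The lower 18S set was uneven in elongating spermatid markers, which were high in CTL 1, CTL 2 and SKO 1 but not in SKO 2 and SKO 3. Whether this bears on the calls made there was not tested. Among the 6 ATPase genes, whose products unfold the substrate, log2 fold changes ran from -0.42 for Psmc3 to 0.54 for Psmc6, with a median of -0.13. Psmc6 had 6212, 6048, 6136 and 6872 in SKO, against 5098, 5277, 3110 and 4249 in CTL. All SKO values were above all CTL values, yet the test was not passed (limma adjusted p = 0.0577). Psmc3 was lower in SKO 1 to 3 than in any CTL library, with 44794 to 66345 in SKO and 66221 to 80295 in CTL, and SKO 4 was level with CTL 4 (limma adjusted p = 0.0781).

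Among the 11 non-ATPase genes of the cap, 9 had a negative log2 fold change, with a median of -0.15. With scaling by library totals, which moved the median of all genes to 0.33, 4 of 11 were negative. Relative to the median of all genes, which a change of scaling leaves in place, 9 of 11 were below it over all 8 libraries, and 8 of 11 were below it within each of the 18S sets. Psmd8, for a subunit of the lid, had the smallest p: 26271, 24123, 24748 and 24010 in SKO, against 32824, 34819, 31570 and 29244 in CTL. The groups did not overlap (log2 fold change -0.37 ± 0.12 SE, limma adjusted p = 0.052). It passed the threshold with median-ratio scaling (-0.44, adjusted p = 0.0312). Psmd2, for the large scaffold of the base, and Psmd13, for a lid subunit, were also lower in every SKO library than in any CTL library: Psmd2 at 56392 to 66771 in SKO and 69337 to 101068 in CTL, Psmd13 at 9698 to 10820 in SKO and 11566 to 17385 in CTL (limma adjusted p = 0.0641 and 0.0792). Of Psmd2, 24.8% of the 50-base stretches also occur in Gm5422, so its count is uncertain. Psmd14, for the enzyme that removes ubiquitin chains, had 4710 to 6380 in SKO and 3724 to 6165 in CTL (log2 fold change 0.24, limma adjusted p = 0.361).

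The 7 assembly chaperone genes, whose products guide the building of the core and the cap and leave the finished particle, had no call and no gene with separated groups. Their log2 fold changes ran from -0.21 for Psmg2 to 0.64 for Psmd10. Psmg3, a chaperone of the alpha ring, had the smallest p, with 400, 275, 308 and 261 in SKO, against 271, 203, 155 and 200 in CTL. Only SKO 4 was below the highest CTL library (log2 fold change 0.58, limma adjusted p = 0.108). Of the 50-base stretches of Psmg3, 21.8% also occur in Gm26938, not a row of the table, so its count is uncertain. Psmd10, which codes for gankyrin, a chaperone of the cap, had 1563, 1494, 1368 and 1247 in SKO, against 1431, 1529, 627 and 487 in CTL. CTL 3 and CTL 4 stood apart, and the 2 other CTL libraries were close to the SKO values (limma adjusted p = 0.216). Within the lower 18S libraries, which hold neither CTL 3 nor CTL 4, its log2 fold change was -0.01.

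**Figure D4:**
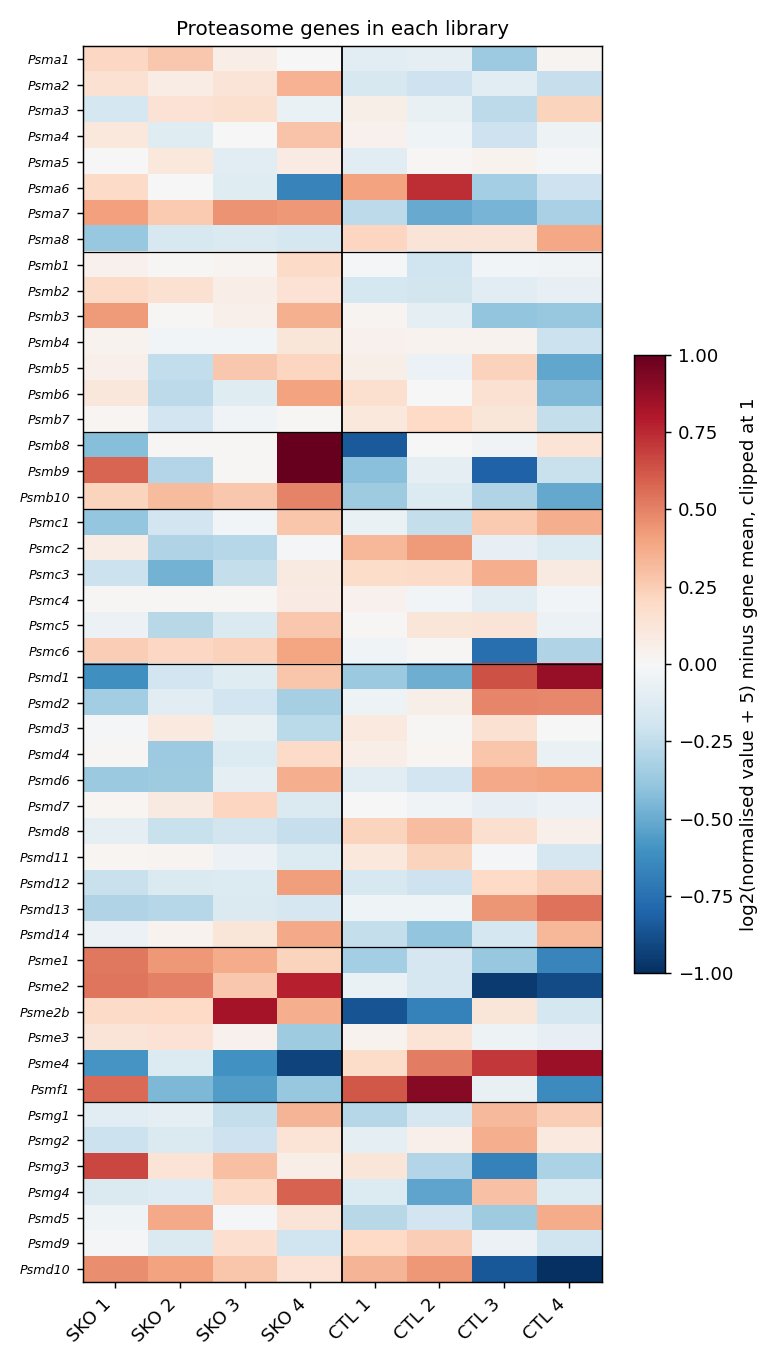
Each row is a proteasome gene and each column a library, SKO left of CTL, and colour gives log2(normalised value + 5) minus the mean of that gene, clipped at 1. Psme4 is low and Psma7, Psme1 and Psme2 are high across SKO, while Psmf1 is high in SKO 1, CTL 1 and CTL 2.

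Levels differed far more between members than between genotypes. Per kilobase, Psmc3 was the highest member, with a mean normalised value of 33258 in SKO and 44104 in CTL, followed in CTL by Psmd2, with 20538 in SKO and 29170 in CTL. Psmb8 and Psmb9 were the lowest, with 125 and 180 per kilobase in SKO, and 90.4 and 97.0 in CTL. Psme4 ranked 11 of 48 in SKO and 6 of 48 in CTL on this scale.

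The comparison was repeated within the library sets of unlike 18S share. The lower set was uneven in elongating spermatid markers. Their sums were 463808 and 552942 in CTL 1 and CTL 2, against 477564, 133353 and 136604 in SKO 1 to 3. In the lower set (SKO 1 to 3 against CTL 1 and 2), all 7 called genes were called again, in the same direction, against 32.2% of all genes called. In the higher set (SKO 4 against CTL 3 and 4), where the lone SKO library is assumed to vary like the CTL libraries, Psme4 alone of the 7 was called, against 1.8% of all genes called. The 7 genes were chosen on all 8 libraries, so their signs within the sets are a description and no independent support. The size depended on the set for some: Psme4 gave -0.79 in the lower set and -1.69 in the higher set (limma adjusted p = 0.0228 and 0.00956), Psme2 gave 0.55 and 1.71, and Psme2b gave 1.18 and 0.41. Psma7 gave 0.76 and 0.85, and Psma8 gave -0.40 and -0.41. The log2 difference of Psma8 to Psma7 was -1.16 in the lower set and -1.26 in the higher set. Whether the sets differ was not tested.

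**Figure D5:**
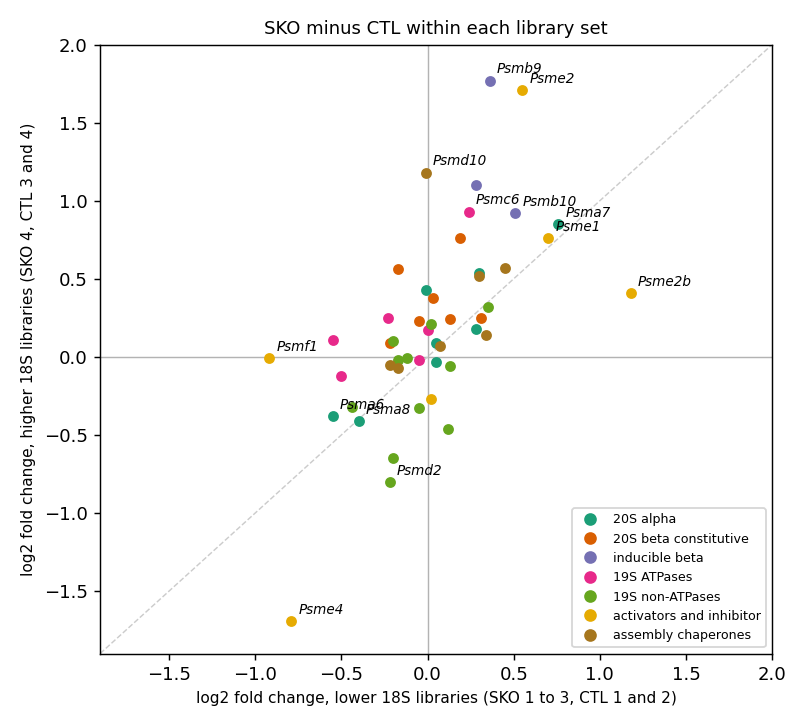
Log2 fold change of each proteasome gene within the lower 18S libraries (horizontal axis) and within the higher 18S libraries (vertical axis), SKO minus CTL. Psma7 (0.76 and 0.85) and Psma8 (-0.40 and -0.41) lie near the diagonal, and Psme4 (-0.79 and -1.69) and Psme2 (0.55 and 1.71) lie away from it.

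Genes that work with the proteasome were followed as a list of 31, of which 30 were in the table. Of these, 2 rose and 3 fell, which is 16.7% against 19.9% of all genes, with a median log2 fold change of -0.01. Nfe2l2, the stress-response transcription factor that can raise proteasome genes, had 4465, 4974, 4281 and 3794 in SKO, against 2539, 2533, 1878 and 2166 in CTL. The groups were well apart, and the rise was 1.92-fold (limma adjusted p = 0.0123). Nfe2l1, the related factor that restores proteasome genes when the protease is blocked, had 15861 to 20788 in SKO and 12019 to 16851 in CTL (log2 fold change 0.31, limma adjusted p = 0.188).

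Ubqln2, which shuttles tagged proteins to the cap, had 6644, 9284, 9013 and 5613 in SKO, against 4496, 4395, 4767 and 5148 in CTL, a 1.59-fold rise (limma adjusted p = 0.0307). Nploc4, a cofactor of the unfolding enzyme Vcp, had 20197, 27181, 25615 and 21219 in SKO, against 31122, 30987, 48834 and 52116 in CTL, a 1.69-fold fall (limma adjusted p = 0.034). Neither gene overlapped between groups. Ube3c, a ubiquitin ligase bound to the proteasome, had 11377, 15872, 12761 and 8357 in SKO, against 17157, 19811, 19012 and 23395 in CTL, a 1.67-fold fall (limma adjusted p = 0.0313). Ngly1, which removes sugar chains from proteins bound for the proteasome and is needed to activate Nfe2l1, had 16439, 14990, 13854 and 14054 in SKO, against 22651, 27809, 21777 and 21919 in CTL, a 1.58-fold fall (limma adjusted p = 0.0151). Every SKO library was below every CTL library in both. Leaving out 1 library kept the calls of Nfe2l2 and Ngly1 in 7 of 8 fits (lost without SKO 3), of Ube3c in 5, of Nploc4 in 3 and of Ubqln2 in 2. With library totals none of the 3 falls was called. The ubiquitin gene Ubb was not called, with a log2 fold change of -0.26 (limma adjusted p = 0.3).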

How the data were processed

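RNA of 4 SKO and 4 CTL testis samples was sequenced, and 1 gene table of the series was used. Reads were aligned to mm10 with HISAT2 2.0.5 and counted with featureCounts 1.5.0-p3, with CASAVA and fastp also named, per the submitters' processing notes. The deposited values are unit-free scores. In all columns but those of CTL 1 and CTL 2, gaps in the whole numbers show counts multiplied by a factor and rounded. A count model was therefore not used. TMM scaling factors, with 30% and 5% trimmed, were applied to the table. A gene entered the test if 4 or more libraries reached a value of 25. The test was limma 3.58.1 in R 4.3.3, with a trend, applied to log2(value + 5). Benjamini-Hochberg adjustment ran over 17066 genes, with a threshold of 0.05. The 5 ratios were tested by exact two-sided permutation over 70 assignments (scipy 1.17.1). The procedure was tested on simulated data. Alternatives were other scalings, pseudocounts of 1 and 25, no filter, a replicate block, each library left out, and the sets split at an 18S share of 0.5%. Transcript lengths, overlaps and shared 50-base stretches came from GENCODE M21.

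The members and lists were chosen with earlier results of these data known. Values in every library are given for the forms with a counterpart and for Psme1 to Psme4. In each role they are also given for the called genes with the largest rise and fall. Where none was called, the gene with the smallest p was used. Among the associated genes, the 3 largest called rises and falls are given. Psma2, Psma6, Psmb1, Psmb2, Psmc3, Psmd2, Psmd13, Psmd14, Psmd10, Psmf1 and Psme2b were named after their values were seen.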

Additional observations from a re-analysis of the deposited data

Results flagged for a closer look

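In 7 of 106 groups of 4 values checked (the members and ratios in SKO and in CTL), 1 library lay far from the other 3, and chance alone gives about 1 in 20. Psma8, called as fallen, was 10883 in SKO 1 and 12539 to 12803 in the other SKO libraries. Psmb1 was 10107 in SKO 4 and 8926 to 9094 in the other SKO libraries, and 7682 in CTL 2 and 8617 to 8780 in the other CTL libraries. Psmb4 was 11454 in CTL 4 and 13577 to 13678 in the other CTL libraries. Psmc4 was 6280 in SKO 4 and 5958 to 5978 in the other SKO libraries. Psmd12 was 14615 in SKO 4 and 9397 to 9973 in the other SKO libraries. Psmf1 was 26012 in SKO 1 and 11920 to 13479 in the other SKO libraries. SKO 4 is the SKO library with the higher 18S share.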

How the results depend on the processing

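Members called (risen and fallen) numbered 5 and 2 with no filter and with pseudocounts of 1 and 25. They numbered 4 and 4 with median-ratio scaling, 6 and 1 with upper quartile scaling, 15 and 1 with library totals, 5 and 6 in the lower 18S libraries, and 0 and 1 in the higher ones (7 and 3 at an unadjusted p under 0.05). Leaving out 1 library gave 0 to 4 risen and 0 to 3 fallen members. Without SKO 3 none was called (9 and 5 at an unadjusted p under 0.05), nor was any gene (4784 at an unadjusted p under 0.05).

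Of all genes, library totals gave 4885 risen and 456 fallen, the lower 18S set 3194 and 2283, the higher set 43 and 252, and leaving out 1 library 0 to 2455 and 0 to 1526. Associated genes called numbered 8 and 0 with library totals, 4 and 5 in the lower 18S set, 0 and 2 in the higher set, and 0 to 2 and 0 to 4 without 1 library. The members' median log2 fold change was -0.02 with median-ratio scaling, 0.34 with library totals and 0.16 in the higher 18S set. The log2 difference of Psme4 to Psme3 was -0.81 in the lower and -1.42 in the higher 18S set, and that of Psmb9 to Psmb6 was 1.21 in the higher set. Over fits without 1 library, Psmb8 to Psmb5 ranged from -0.05 to 0.48 and turned negative without SKO 4 or CTL 1.

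Among 17 genes followed through every alternative, the log2 fold changes that turned sign were of uncalled genes. Psmb5 was -0.04 without CTL 4, in a range of -0.04 to 0.25 over fits without 1 library. Psmb6 was -0.0024 with median-ratio scaling, -0.17 in the lower 18S set, -0.06 without SKO 4 and -0.10 without CTL 4. Psmb7 was 0.20 with library totals and 0.09 in the higher 18S set. Psme3 was 0.02 with upper quartile scaling and in the lower 18S set, 0.27 with library totals and 0.10 without SKO 4, in a range of -0.09 to 0.10 over fits without 1 library. Of other members named, Psmd10 was -0.01 and Psmd1 0.12 in the lower 18S set. The cause was not tested. Of 290 values of 17 named genes under alternatives, 235 kept direction and side of the threshold, 37 lost the call, 7 gained one and 11 turned sign.

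The labels do not say whether same-numbered samples are paired. Deviations of same-numbered libraries from their group means correlated at 0.673, 0.0119, 0.082 and 0.231. SKO 1 correlated best with CTL 2 (0.706). These correlations cannot show whether the samples were paired, since unpaired libraries can also vary together. With the replicate number as a block, 5 members rose and 1 fell, the call of Psma8 being lost (adjusted p = 0.0556). For the ratios, sign flips over 4 pairs cannot give less than 0.125. Psmb8, Psmb9 and Psmg3 rested on 55 to 288 reads where the read number is known, and their coefficients of variation within groups were 20.1% to 53.9%.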

Other observations

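Psmf1, which codes for the proteasome inhibitor PI31, was not called, and its high libraries came from both genotypes. Its log2 fold change was -0.92 in the lower 18S set (limma adjusted p = 0.0701) and -0.01 in the higher set. It had 26012, 12828, 11920 and 13479 in SKO 1 to 4, against 27073, 33078, 16637 and 11283 in CTL 1 to 4, so SKO 1, CTL 1 and CTL 2 were high and the other 5 libraries low (log2 fold change -0.41, 95% interval -1.22 to 0.39, limma adjusted p = 0.439). The same 3 libraries were the highest for Psma6, at 17722 in SKO 1 and 20520 and 25905 in CTL 1 and CTL 2, and the other 5 were at 9778 to 15593. Psmd1, a scaffold of the cap base, was lowest there, at 9593 in SKO 1 and 11347 and 10489 in CTL 1 and CTL 2, and at 12888 to 26828 in the others. The summed value of 7 elongating spermatid markers was 477564 in SKO 1 and 463808 and 552942 in CTL 1 and CTL 2, and 68665 to 212353 in the other 5 libraries. None of these markers was called or at 0 in any library, and their part in the values of Psmf1, Psma6 and Psmd1 was not tested. These genes were chosen after their values were seen.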
